A study of Mus musculus with 6 samples.

Results

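A set of 7 receptor genes of fat cells was examined in the groin fat pad of mice (inguinal white adipose tissue, a subcutaneous depot): the natriuretic peptide receptors Npr1 and Npr3, the beta-adrenergic receptors Adrb1 and Adrb3, and the antilipolytic receptors Adora1, Ptger3 and Hcar1. They were taken by gene symbol, and all 7 were found among the 14861 genes of the deposited table and among the 12993 genes tested. The knockout mice, called AdIGF1RKO, carried floxed alleles of Igf1r (Igf1rtm2Arge), the gene of the insulin-like growth factor 1 receptor, together with the transgene (Adipoq-Cre)1Evdr. Its adiponectin promoter drives Cre in adipocytes, so the other cells of the pad keep the gene. Their littermate controls, called Flox, carried the floxed alleles. Both groups received normal chow (10% kcal from fat) over 24 weeks, and an overnight fast preceded sampling; the age of the mice is not given in the labels. Each group had 3 libraries of polyadenylated RNA, numbered 1 to 3, and the titles call them replicates without saying that each is a separate mouse. The p-values therefore measure the spread between these libraries, which may be technical.

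Lipolysis is the breakdown of stored triglyceride in adipocytes, which fasting raises. Catecholamines act through beta-adrenergic receptors that couple to the stimulatory G protein, raise cyclic AMP and activate protein kinase A, which phosphorylates perilipin and hormone-sensitive lipase. Receptors for adenosine, prostaglandin E2 and lactate couple to inhibitory G proteins and lower cyclic AMP. The natriuretic peptides of the heart act through a receptor with its own guanylyl cyclase and cyclic GMP, a route to lipolysis that is well known in human fat cells, while in mouse fat the clearance receptor limits it.

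The sequences of the natriuretic peptide receptor promoters are shown because these receptors bind the same peptides and their ratio is described below, and that of Hcar1 because its level followed that of Adrb3 from library to library. Each runs from 250 bases before to 50 bases after the RefSeq transcription start, 5′ to 3′ on the gene's strand in build GRCm38.p6, at chr3:90465817-90466116 (minus strand) for Npr1, chr15:11907322-11907621 (minus strand) for Npr3 and chr5:123879954-123880253 (minus strand) for Hcar1. Capitals mark the CCAAT box (CCAAT) and the GC box (GGGCGG) on either strand.
Npr1: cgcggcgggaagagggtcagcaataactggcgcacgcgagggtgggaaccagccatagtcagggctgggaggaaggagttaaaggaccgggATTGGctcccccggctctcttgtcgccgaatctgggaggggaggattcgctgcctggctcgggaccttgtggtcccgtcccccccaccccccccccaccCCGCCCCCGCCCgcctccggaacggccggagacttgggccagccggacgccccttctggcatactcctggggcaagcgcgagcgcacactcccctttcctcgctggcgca
Npr3: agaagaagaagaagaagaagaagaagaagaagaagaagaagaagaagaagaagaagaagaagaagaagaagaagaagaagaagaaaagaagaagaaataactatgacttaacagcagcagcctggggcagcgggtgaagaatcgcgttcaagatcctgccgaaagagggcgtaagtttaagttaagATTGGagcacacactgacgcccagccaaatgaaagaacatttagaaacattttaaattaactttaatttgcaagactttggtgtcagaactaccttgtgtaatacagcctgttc
Hcar1: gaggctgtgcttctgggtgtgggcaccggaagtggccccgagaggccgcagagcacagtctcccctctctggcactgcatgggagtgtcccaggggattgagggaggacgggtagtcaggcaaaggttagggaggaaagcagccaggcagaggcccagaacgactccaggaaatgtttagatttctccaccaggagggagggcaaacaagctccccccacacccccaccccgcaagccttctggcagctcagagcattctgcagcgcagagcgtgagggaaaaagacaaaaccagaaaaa
The Npr1 window had 69.7% G and C and held an inverted CCAAT box and 2 adjoining GC boxes. The Npr3 window had 39.0% G and C, opened with a long run of gaa triplets, and held an inverted CCAAT box 60 to 64 bases before the start and no GC box. The Hcar1 window had 59.7% G and C and held neither. The median over all 32851 promoters of this length in the table was 52.7%, and 37.4% of them held CCAAT and 35.7% GGGCGG on either strand. RefSeq promoters were found for 6 members, Adora1 with 2 start sites, and not for Adrb3. None of the 6 held TATAAA (the TATA box, in 13.6% of all promoters), AGGTCA (a nuclear receptor core motif, 16.3%), TTGCNNAA (a C/EBP core, 10.8%) or TGACGTCA (the cyclic AMP response element, 1.79%) on either strand.

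The libraries held 60617147 to 70695527 reads in genes. The values are given as scaled CPM, reads per 1000000 of a library of geometric mean size after median-ratio scaling, and 1 read was worth 0.0130 to 0.0207 scaled CPM. Igf1r itself had 6.11, 5.27 and 4.85 scaled CPM in AdIGF1RKO 1 to 3, against 6.44, 6.47 and 5.86 in Flox 1 to 3, with overlap (log2 difference -0.18, standard error 0.12, limma adjusted p = 0.998). This gene-level value also counts exons outside the floxed part and RNA of cells without Cre, so it is no full check of the labels. No gene passed limma at an adjusted p under 0.05 (0 of 12993). An unadjusted limma p under 0.05 was found for 385 genes (2.96%), or 582 with the replicate number as a block. It was found for 378 (2.91%) by edgeR, which called 0, and for 494 (3.80%) by DESeq2, which called 23 (0.177%). All 12 adipocyte markers were measured, with a summed level of 53546 to 59630 scaled CPM in AdIGF1RKO and 56257 to 72020 in Flox. The sum was highest in Flox 2 and lowest in AdIGF1RKO 2. Skeletal muscle markers, of which 18 of 19 were measured, took 0.0558%, 0.296% and 4.89% of the reads in AdIGF1RKO 1 to 3, against 0.943%, 0.111% and 13.5% in Flox 1 to 3. Macrophage markers (10 of 10 measured) summed to 584, 1066 and 463 scaled CPM in AdIGF1RKO 1 to 3 and to 431 to 658 in Flox. Endothelial markers (10 of 10 measured, 9 tested) summed to 568 to 670 scaled CPM in AdIGF1RKO and to 495 to 603 in Flox. Of the 9, 7 were higher in the mean (median log2 difference 0.16). Groups did not overlap for 5 of them, against 8.27% of all tested genes. An unadjusted limma p under 0.05 was found for 2 higher ones, against 1.83% of all tested genes in that direction. In whole tissue, fewer cells of a type and less RNA per cell cannot be told apart.

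Of the 7 receptors, Npr3 was the one whose groups did not overlap, and it was higher in AdIGF1RKO. Ptger3 was higher in the mean with overlap, Adrb3 and Hcar1 were lower in the mean with overlap, and the means of Npr1, Adrb1 and Adora1 lay within 10% of each other between the groups. No member passed limma over all genes (adjusted p = 0.998 for each), edgeR or DESeq2. Groups did not overlap for 8.27% of all tested genes, 4.41% being higher and 3.86% lower in AdIGF1RKO. Npr3 and Ptger3 had an unadjusted limma p under 0.05, as did 2.96% of all tested genes, 1.83% being higher and 1.13% lower in AdIGF1RKO. The median log2 difference of the members was 0.09, with 5 of 7 positive, against -0.02 over all tested genes, of which 5820 were positive. Without Flox 3 that count was 3 of 7 and the median -0.01.

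**Figure D1:**
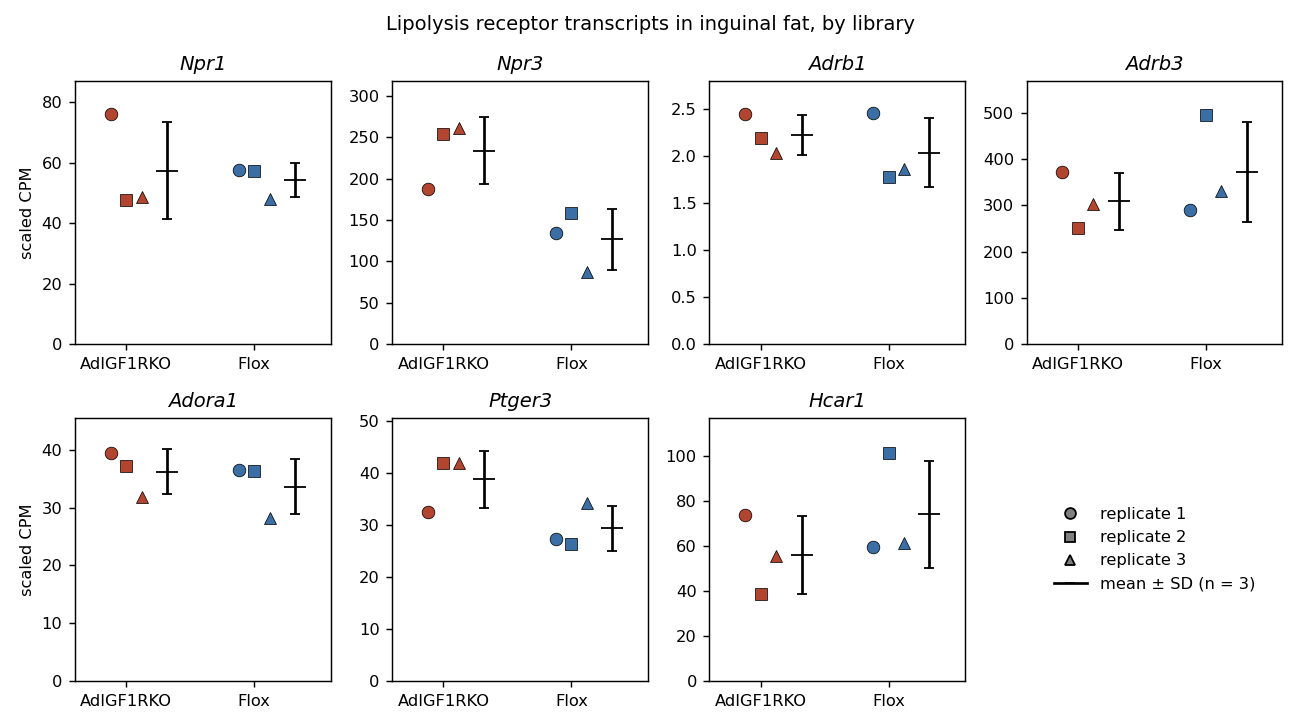
Scaled CPM (y axes, linear, from 0) of the 7 receptor transcripts in AdIGF1RKO and Flox libraries, 1 panel per gene; symbols mark replicate numbers and bars show mean ± SD (n = 3). Npr3 is the panel whose groups separate, with 187 to 261 in AdIGF1RKO and 86.7 to 159 in Flox.

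Npr1 encodes the receptor for atrial and B-type natriuretic peptide, a guanylyl cyclase that makes cyclic GMP when it binds them. It had 75.9, 47.5 and 48.7 scaled CPM in AdIGF1RKO 1 to 3, against 57.6, 57.2 and 47.8 in Flox 1 to 3. AdIGF1RKO 1 was the highest library and AdIGF1RKO 2 the lowest, so that the AdIGF1RKO values enclosed those of Flox. The means were 57.4 ± 16.1 in AdIGF1RKO and 54.2 ± 5.53 in Flox (SD, n = 3 each). The log2 difference was 0.05 with a 95% interval from -0.42 to 0.53, on the log2(scaled CPM + 1) scale that all log2 differences here use (limma adjusted p = 0.998). It was -0.16 without AdIGF1RKO 1, -0.03 without Flox 3, and -0.11 under the deposited scaling, which put the median gene at -0.17. Counting error was small beside this spread, since each value rested on 2308 to 5851 reads and the counting error was at most 2.08%.

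Npr3 encodes the natriuretic peptide clearance receptor, which binds the same peptides, lacks the cyclase domain and takes them into the cell for breakdown. It had 187, 254 and 261 scaled CPM in AdIGF1RKO 1 to 3, against 134, 159 and 86.7 in Flox 1 to 3. Every AdIGF1RKO library was above every Flox library, so any pairing of libraries gives higher values in AdIGF1RKO. Between libraries of the same number the log2 differences were 0.47, 0.67 and 1.58. The means were 234 ± 40.7 in AdIGF1RKO and 127 ± 36.7 in Flox (SD, n = 3 each), a ratio of 1.85. On the log2 scale the groups differed by 0.91 (standard error 0.25, 95% interval 0.31 to 1.50). This did not pass limma (adjusted p = 0.998), edgeR (adjusted p = 0.981) or DESeq2 (adjusted p = 0.118). An exact two-sided permutation test over the libraries gave 0.1, the smallest p that 3 against 3 allows. The difference stood at percentile 99.8 of all tested genes.

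The lowest Npr3 value was that of Flox 3, the library with the most skeletal muscle RNA, and the highest that of AdIGF1RKO 3, which had the next most. Without Flox 3 the log2 difference was 0.66, and without both of these libraries it was 0.57. Without both, all 18 tested muscle markers were still lower in the AdIGF1RKO mean (median log2 difference -1.43), so muscle RNA remained unequal. Relative to the summed adipocyte markers, Npr3 stood at 0.313%, 0.474% and 0.442% in AdIGF1RKO 1 to 3, against 0.232%, 0.220% and 0.154% in Flox 1 to 3, again without overlap. Under the 17 alternative settings and tools the log2 difference of Npr3 ranged from 0.57 to 1.09. Since its groups do not overlap, leaving libraries out could not change the sign. Among 8916 other genes with a mean of at least 10 scaled CPM, the profiles nearest to that of Npr3 over the 6 libraries, by root-mean-square distance of centred log2 values, were those of Cdr2 (0.18), Bmp3 (0.18) and Lep (0.20), against a spread of 0.54 for Npr3 itself. Lep, the gene of the adipocyte hormone leptin, had 396, 580 and 502 scaled CPM in AdIGF1RKO 1 to 3, against 200.2, 277 and 159 in Flox 1 to 3. These genes were picked for likeness to Npr3 over the same libraries, so a group difference in them follows from the choice.

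The ratio of Npr1 to Npr3 reads within a library does not depend on how libraries are scaled. It was 0.406, 0.187 and 0.187 in AdIGF1RKO 1 to 3, against 0.428, 0.361 and 0.551 in Flox 1 to 3. AdIGF1RKO 2 and 3 lay below all Flox libraries, while AdIGF1RKO 1 lay between Flox 1 and Flox 2. The means were 0.260 ± 0.126 in AdIGF1RKO and 0.447 ± 0.0968 in Flox (SD, n = 3 each), and the log2 ratio differed by -0.86, with no test since it combines members. Without both muscle-rich libraries this difference was -0.51.

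**Figure D2:**
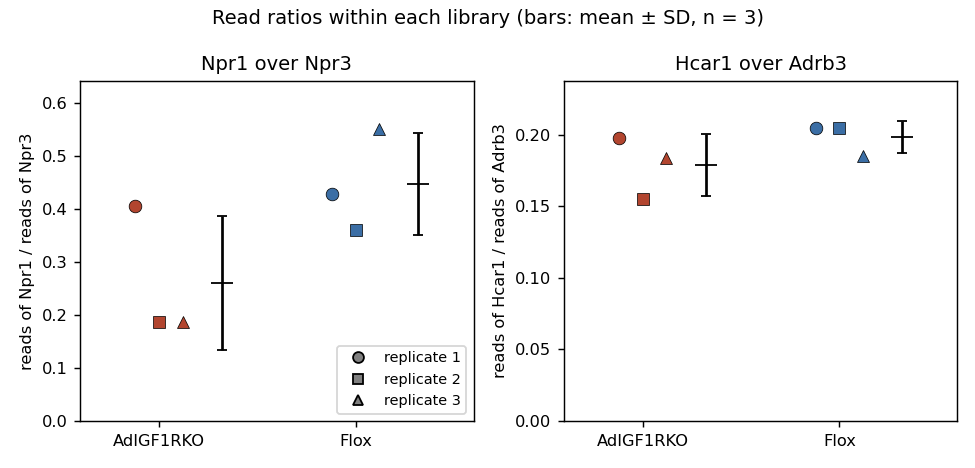
Reads of Npr1 over reads of Npr3 (left) and of Hcar1 over Adrb3 (right) in each library, on linear axes from 0, with mean ± SD (n = 3). The Npr1 to Npr3 ratio is 0.187 in AdIGF1RKO 2 and 3, but 0.406 in AdIGF1RKO 1, which lies within the Flox range of 0.361 to 0.551, while the Hcar1 to Adrb3 ratio stays between 0.155 and 0.205 in all libraries.

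Other genes of natriuretic peptide signalling had log2 differences from -0.24 to 0.34. Of 10 tested, 6 were higher and 4 lower in the mean (median log2 difference 0.10), and 0 had an unadjusted p under 0.05. Mme, which encodes the peptidase neprilysin that degrades natriuretic peptides, had 46.8 ± 6.06 scaled CPM in AdIGF1RKO and 36.9 ± 5.26 in Flox without overlap, and did not pass (log2 difference 0.34, limma adjusted p = 0.998). Gucy1a1, a subunit of the soluble guanylyl cyclase that nitric oxide activates, had 18.7 ± 0.550 in AdIGF1RKO and 16.2 ± 2.21 in Flox. Npr2, the receptor for C-type natriuretic peptide, had 57.2 ± 9.64 and 63.4 ± 2.19 in the same order. Pde9a, a phosphodiesterase specific for cyclic GMP, had 5.94 ± 0.910 in AdIGF1RKO and 5.48 ± 0.349 in Flox. The peptide genes Nppa, Nppb and Nppc were not among the genes of the deposited table. That table holds only genes with at least 1 read in every library, so an absent gene need not be unexpressed.

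Adrb3 encodes the beta-adrenergic receptor that is characteristic of mouse adipocytes. It had 372, 250.5 and 303 scaled CPM in AdIGF1RKO 1 to 3, against 291, 495 and 330.1 in Flox 1 to 3. Flox 2 was the highest library and AdIGF1RKO 2 the lowest, and the groups overlapped. The means were 308 ± 60.8 in AdIGF1RKO and 372 ± 108 in Flox (SD, n = 3 each), with a log2 difference of -0.25 and a 95% interval from -0.82 to 0.31 (limma adjusted p = 0.998). Without Flox 2, the library with the highest sum of adipocyte markers, the difference was -0.03. Without AdIGF1RKO 2, which had the lowest such sum and the most macrophage marker RNA, it was -0.11. It was -0.39 without AdIGF1RKO 1 and -0.41 without Flox 1, and relative to the summed adipocyte markers it was -0.14. The part of cell makeup in it was not tested. The nearest profiles were those of Opn3 (root-mean-square distance 0.08), Gpc3 (0.08) and Bcl2l12 (0.09).

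Adrb1, the other beta-adrenergic receptor measured, had 2.45, 2.19 and 2.03 scaled CPM in AdIGF1RKO 1 to 3, against 2.46, 1.78 and 1.86 in Flox 1 to 3. These values overlapped and rested on 90 to 189 reads, with a counting error of 7.27% to 10.5%. The between-library coefficient of variation was 9.49% in AdIGF1RKO and 18.1% in Flox, of the same order as the counting error. The log2 difference was 0.09 with a 95% interval from -0.27 to 0.46 (limma adjusted p = 0.998), and -0.02 with the values as deposited. Adrb1 reads were 0.0066, 0.0087 and 0.0067 of Adrb3 reads in AdIGF1RKO 1 to 3, against 0.0084, 0.0036 and 0.0056 in Flox 1 to 3. Its nearest profiles were Samd4b, Gimap1 and Fli1, each within 0.041, against a spread of 0.12 for Adrb1 itself.

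Adora1 encodes the adenosine A1 receptor, through which adenosine restrains lipolysis. It had 39.5, 37.3 and 31.9 scaled CPM in AdIGF1RKO 1 to 3, against 36.5, 36.3 and 28.2 in Flox 1 to 3. Library 3 was the lowest of each group, and both of these libraries were rich in muscle RNA. The means were 36.2 ± 3.88 in AdIGF1RKO and 33.7 ± 4.72 in Flox (SD, n = 3 each), with a log2 difference of 0.11 and a 95% interval from -0.23 to 0.44 (limma adjusted p = 0.998). The difference was -0.01 without Flox 3 and -0.05 with the values as deposited. Its nearest profiles were Erlin2 (0.024), Gnai2 (0.026), which encodes an inhibitory G protein alpha subunit, and Wasf2 (0.027). The spread of Adora1 itself was 0.16.

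Ptger3 encodes EP3, the prostaglandin E2 receptor of adipocytes that couples to inhibitory G proteins. It had 32.4, 42.0 and 41.9 scaled CPM in AdIGF1RKO 1 to 3, against 27.4, 26.4 and 34.3 in Flox 1 to 3. AdIGF1RKO 2 and 3 lay above all Flox libraries, and AdIGF1RKO 1 lay below Flox 3. Each AdIGF1RKO library was above the Flox library of the same number, a pairing that the labels do not give. The means were 38.8 ± 5.50 in AdIGF1RKO and 29.3 ± 4.31 in Flox (SD, n = 3 each), a ratio of 1.32. The log2 difference was 0.39 with a 95% interval from 0.03 to 0.75, an unadjusted limma p of 0.0396 and an adjusted p = 0.998, and an exact permutation p of 0.2. With the values as deposited it was 0.23, and the unadjusted limma p was 0.336. The unadjusted limma p was also above 0.05 without AdIGF1RKO 2, AdIGF1RKO 3, Flox 1 or Flox 2, from 0.112 to 0.119. Relative to the summed adipocyte markers the log2 difference was 0.49, with an unadjusted limma p of 0.0625. The unadjusted p of Ptger3 was under 0.05 in 11 of the 17 alternative settings and tools. Its nearest profiles were Gamt (0.06), Eif2b3 (0.08) and Dhx32 (0.08).

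Hcar1 encodes the lactate receptor of adipocytes, also called GPR81, by which lactate lowers cyclic AMP. It had 73.6, 38.8 and 55.6 scaled CPM in AdIGF1RKO 1 to 3, against 59.6, 101.3 and 61.1 in Flox 1 to 3. As for Adrb3, Flox 2 was the highest library and AdIGF1RKO 2 the lowest. The means were 56.0 ± 17.4 in AdIGF1RKO and 74.0 ± 23.7 in Flox (SD, n = 3 each), with a log2 difference of -0.40 and a 95% interval from -1.10 to 0.30 (limma adjusted p = 0.998). Without Flox 2 it was -0.15, without AdIGF1RKO 2 -0.16, and without AdIGF1RKO 1 -0.62. Relative to the summed adipocyte markers it was -0.29. The nearest profiles were those of Chst1 (0.11), Fgfr2 (0.12) and Slc27a1 (0.12), a fatty acid transport protein gene.

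Hcar1 and Adrb3, with opposed actions on cyclic AMP, followed each other closely. Hcar1 reads were 0.198, 0.155 and 0.183 of Adrb3 reads in AdIGF1RKO 1 to 3, against 0.205, 0.205 and 0.185 in Flox 1 to 3. This ratio varied 1.32-fold over the 6 libraries, while Hcar1 itself ranged from 38.8 to 101.3 scaled CPM. Their profiles were 0.133 apart by root-mean-square distance, against spreads of 0.41 for Hcar1 and 0.31 for Adrb3 themselves. Of the other pairs of members only Adrb1 with Adora1 was closer (0.128). Both of these vary little, with spreads of 0.12 and 0.16, so their distance is no sign of likeness. Genes outside the set were closer to each, at 0.11 to 0.12 for the 3 nearest to Hcar1 and 0.08 to 0.09 for Adrb3. The summed adipocyte markers were also highest in Flox 2 and lowest in AdIGF1RKO 2, and their part in this likeness was not tested. Among the members, Npr3 and Hcar1 were the farthest apart, at 0.79. The ratio of Ptger3 to Hcar1 reads, 2 receptors with the same inhibitory coupling, was 0.441, 1.08 and 0.753 in AdIGF1RKO 1 to 3, against 0.460, 0.260 and 0.561 in Flox 1 to 3, and varied 4.16-fold.

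**Figure D3:**
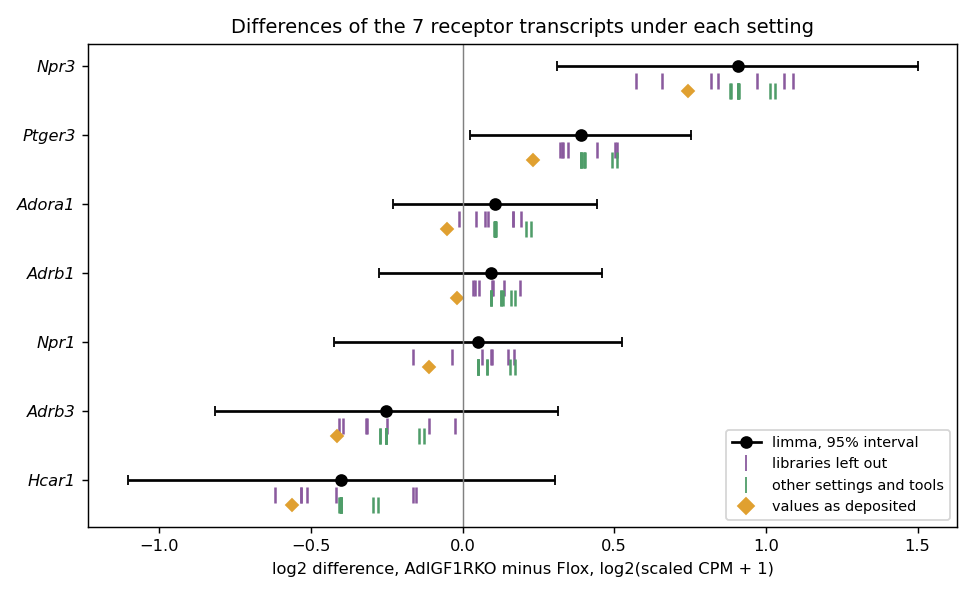
Log2 difference (x axis) of each receptor transcript between AdIGF1RKO and Flox; black points and bars are limma estimates with 95% intervals, ticks are values with libraries left out (purple) or with other settings and tools (green), and diamonds are values as deposited. Npr3 stays between 0.57 and 1.09, and Npr1, Adrb1 and Adora1 fall on both sides of 0.

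Levels were compared between the genes per length, as scaled CPM per kilobase of annotated exon (GENCODE M21, union of exons). Adrb3 was highest, with 91.4 ± 18.01 scaled CPM per kilobase in AdIGF1RKO and 110.2 ± 32.1 in Flox, and it exceeded each of the other members in 6 of 6 libraries. Adrb1 was lowest in 6 of 6, at 0.658 ± 0.0624 in AdIGF1RKO and 0.602 ± 0.109 in Flox. Hcar1 had 17.0 ± 5.29 scaled CPM per kilobase in AdIGF1RKO and 22.5 ± 7.20 in Flox, and Npr3 had 24.9 ± 4.34 and 13.5 ± 3.90 in the same order. Hcar1 exceeded Npr3 in 3 of 3 Flox libraries and in 1 of 3 AdIGF1RKO libraries. Npr1, with 12.0 ± 3.36 in AdIGF1RKO and 11.3 ± 1.16 in Flox, was below Npr3 in 5 of 6 libraries and below Hcar1 in 6 of 6. Adora1 (6.26 ± 0.670 in AdIGF1RKO and 5.82 ± 0.815 in Flox) and Ptger3 (6.82 ± 0.966 in AdIGF1RKO and 5.16 ± 0.758 in Flox) could not be ordered, each being above the other in 3 of 6 libraries.

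**Figure D4:**
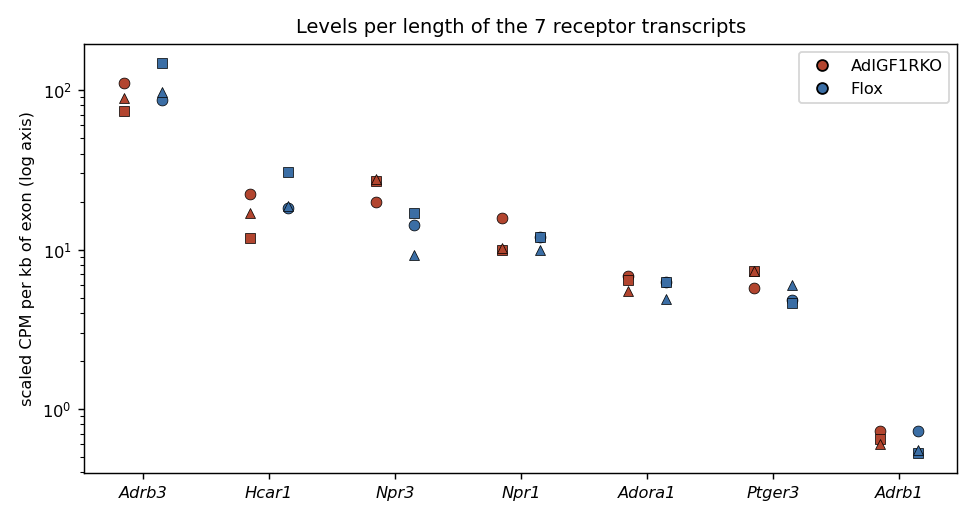
Scaled CPM per kilobase of annotated exon (y axis, log scale) of each receptor transcript in the 3 AdIGF1RKO (red) and 3 Flox (blue) libraries; symbols mark replicate numbers. Adrb3 lies above and Adrb1 below the other members in all 6 libraries, and Npr3 lies above Hcar1 in 2 AdIGF1RKO libraries and below it in the rest.

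The genes that act around these receptors were read from 12 lists, chosen with earlier results of these data known. Of 133 tested genes, 62 were higher and 71 lower in the mean, with a median log2 difference of -0.02, the same as over all tested genes. None passed limma over all genes, and 4 higher and 2 lower genes had an unadjusted p under 0.05, which is 4.51% against 2.96% of all tested genes. Groups did not overlap for 3 of 11 desensitization genes, 3 of 19 ligand supply genes and 2 of 10 natriuretic peptide pathway genes. The same held for 3 of 11 further receptors that lower cyclic AMP or lipolysis and 1 of 10 that raise them. It held for 1 of 12 protein kinase A genes and 0 genes of the other lists, against 8.27% of all tested genes.

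Other receptors differed in both directions. Among 11 further receptors that lower cyclic AMP or lipolysis, 5 were higher and 6 lower in the mean (median -0.07). Hcar2, the receptor for beta-hydroxybutyrate and niacin, had 38.5, 19.7 and 29.6 scaled CPM in AdIGF1RKO 1 to 3, against 42.7, 50.5 and 34.3 in Flox 1 to 3, with overlap and a log2 difference of -0.56 (limma adjusted p = 0.998). As for Hcar1, its lowest library was AdIGF1RKO 2 and its highest Flox 2. Sucnr1, the succinate receptor, had 65.1 ± 5.23 in AdIGF1RKO and 49.0 ± 9.06 in Flox, and Aplnr, the apelin receptor, had 18.9 ± 3.90 and 12.2 ± 1.09 in the same order, both without overlap and with unadjusted limma p-values of 0.0265 and 0.0105. The part of the endothelial markers, 7 of 9 of which were also higher in the mean, in these differences and in that of Npr3 was not tested. Adra2a, the alpha-2A adrenergic receptor, was low in both groups, at 1.19 ± 0.234 in AdIGF1RKO and 1.33 ± 0.504 in Flox. Among 10 receptors that raise cyclic AMP or lipolysis, 6 were higher and 4 lower (median 0.05), and 0 had an unadjusted p under 0.05. They included Adora2b, an adenosine receptor of the stimulatory kind with 2.65 ± 0.630 in AdIGF1RKO and 3.55 ± 0.141 in Flox without overlap, Adora2a with 13.0 ± 2.70 and 11.5 ± 2.72, Ptger4 with 4.20 ± 1.16 and 4.10 ± 0.978, and Gipr with 4.54 ± 0.775 and 5.53 ± 1.43. The alpha-1 receptors Adra1a (8.58 ± 0.490 in AdIGF1RKO and 7.85 ± 1.28 in Flox) and Adra1d (3.46 ± 0.405 and 3.92 ± 1.08) overlapped as well.

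The signalling steps below the receptors were read as 4 lists. Log2 differences of single genes ranged from -0.65 (protein kinase A list) to 0.38 (phosphodiesterases). Of 9 G protein alpha subunits 5 were higher (median 0.12), of 7 adenylyl cyclases 3 (median -0.03), of 12 protein kinase A subunits and anchors 4 (median -0.08) and of 14 phosphodiesterases 5 (median -0.06), and 0 genes of these 4 lists had an unadjusted p under 0.05. Gnas, the stimulatory subunit, had 1020 ± 116 scaled CPM in AdIGF1RKO and 1069 ± 179 in Flox. Gnai2 had 297 ± 32.6 and 274 ± 37.5, Gna12 had 38.5 ± 6.07 and 32.9 ± 2.59, and Gnaq had 40.3 ± 2.01 and 36.3 ± 5.49 in the same order. The cyclases Adcy3 (14.5 ± 3.84 in AdIGF1RKO and 14.7 ± 2.81 in Flox) and Adcy5 (43.1 ± 6.96 and 42.8 ± 11.5) had close means, and Adcy4 had 17.8 ± 3.70 and 14.5 ± 1.69. Prkar2b, the regulatory subunit of protein kinase A that prevails in fat, had 408, 439 and 473 scaled CPM in AdIGF1RKO 1 to 3, against 386, 394 and 352 in Flox 1 to 3. Its groups did not overlap, with a log2 difference of 0.22 (limma adjusted p = 0.998). Akap1, an anchoring protein, had 40.0 ± 5.32 in AdIGF1RKO and 48.7 ± 7.97 in Flox.

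Pde3b, the phosphodiesterase by which insulin restrains lipolysis, had 129 ± 13.5 scaled CPM in AdIGF1RKO and 140 ± 12.8 in Flox. Pde4b, Pde4d and the cyclase Adcy2 were highest in the muscle-rich Flox 3, with 35.7, 36.2 and 7.94 scaled CPM there. Pde11a had 3.53 ± 0.576 in AdIGF1RKO and 2.50 ± 0.632 in Flox. None of these passed limma.

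Of 11 genes of receptor desensitization 7 were higher (median 0.08). Rgs2, a regulator that shortens G protein signalling, had 53.2, 45.2 and 70.1 scaled CPM in AdIGF1RKO 1 to 3, against 93.9, 74.4 and 126 in Flox 1 to 3. All AdIGF1RKO libraries were below all Flox libraries, with a log2 difference of -0.79 and an unadjusted limma p of 0.0140, and it did not pass (adjusted p = 0.998). Rgs5, a relative that marks pericytes, had 243 ± 26.4 in AdIGF1RKO and 196 ± 18.3 in Flox with an unadjusted limma p of 0.0378 and an adjusted p = 0.998. Grk2, the kinase that uncouples activated beta-adrenergic receptors, had 66.4, 83.7 and 54.6 in AdIGF1RKO 1 to 3, against 51.7, 54.2 and 51.7 in Flox 1 to 3. The groups of Rgs5 and Grk2 did not overlap either, and the part of vascular cell markers in the difference of Rgs5 was not tested.

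Genes of ligand supply and of the lipolytic machinery had means in both directions. Of 19 genes that make, move or degrade the ligands 10 were higher (median 0.03). Maob, a monoamine oxidase, had 73.5 ± 5.55 scaled CPM in AdIGF1RKO and 87.3 ± 2.93 in Flox without overlap, with an unadjusted limma p of 0.0313 and an adjusted p = 0.998. Of 15 lipases and droplet proteins 9 were higher (median 0.09) and 0 had an unadjusted p under 0.05. With 1 of AdIGF1RKO 1, AdIGF1RKO 2, Flox 2 or Flox 3 left out, 7 (without Flox 3) to 12 (without Flox 2) of these 15 were higher, with medians of -0.04 and 0.14. Of the 10 receptors that raise cyclic AMP or lipolysis, 4 (without Flox 3) to 8 (without Flox 2) were higher, with medians of -0.08 and 0.12. The lipase genes overlapped, with Pnpla2 (adipose triglyceride lipase) at 1370.5 ± 291 in AdIGF1RKO and 1460 ± 289 in Flox, Lipe (hormone-sensitive lipase) at 825 ± 55.9 and 883 ± 106, and Mgll (monoglyceride lipase) at 475 ± 32.8 and 424 ± 54.8. The lipase regulators Abhd5 (125 ± 11.2 in AdIGF1RKO and 128 ± 9.38 in Flox), G0s2 (321 ± 120 and 273 ± 106) and Plin1 (1504 ± 88.3 and 1397 ± 74.5) overlapped as well. So did Plin3 (25.2 ± 2.40 and 22.5 ± 0.713) and Plin2, at 494 ± 188 in AdIGF1RKO and 361 ± 21.5 in Flox, with 711 in AdIGF1RKO 2.

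Genes that cyclic AMP induces were mostly lower in the mean, 11 of 12 with a median log2 difference of -0.16, and 0 had an unadjusted p under 0.05. The count rested on Flox 2: without it 6 of 12 were lower and the median was -0.01. Without Flox 3, and likewise without both muscle-rich libraries, 9 of 12 were lower. Siah2, a ubiquitin ligase, had 5.36 ± 0.171 scaled CPM in AdIGF1RKO and 6.62 ± 1.10 in Flox. Atf3, a stress-responsive transcription factor, was the exception, with 7.25, 20.46 and 7.53 in AdIGF1RKO 1 to 3, against 5.62, 8.22 and 5.64 in Flox 1 to 3.

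**Figure D5:**
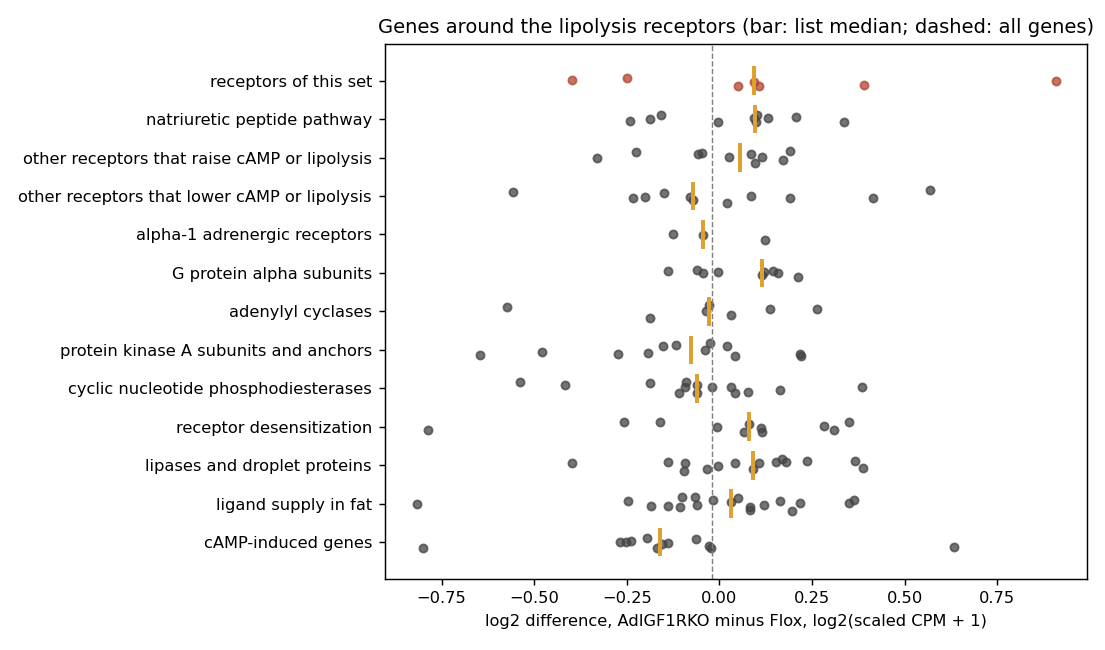
Log2 difference between AdIGF1RKO and Flox (x axis) of each tested gene in the receptor set (top, red) and in the 12 lists around it (grey); orange bars are list medians and the dashed line is the median of all tested genes. List medians lie between -0.16 for cyclic AMP-induced genes and 0.12 for G protein alpha subunits, and Npr3 at 0.91 is the largest value in the plot.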

How the data were processed

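Per the labels' protocols, 6 stranded libraries of polyadenylated RNA were made from the fat pad. GRCm39 is the build in the submitters' processing notes, and no aligner, counter or annotation is given in the sources used. The authors deposited 1 table whose name says FPKM, but its signal is a whole number of reads times 1000000000 over a single divisor per library (100% of values, tolerance 0.5), not divided by gene length. The divisors, 39206000 to 81802000, disagree with the read totals. Reads were recovered and scaled by median-ratio size factors (0.731 to 1.17). Genes with a mean of at least 1 scaled CPM (12993) were tested with limma 3.58.1 in R 4.3.3 on log2(scaled CPM + 1), letting the variance follow the mean level, two-sided, with Benjamini-Hochberg adjustment at 0.05; 1868 genes were left out. The fit was tested on simulated counts with a single dispersion for all genes, and recovered 100% of the changes of log2 size 1 and 2. The simulated libraries did not differ in muscle RNA as the real ones do, so this does not measure power here.

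The members and the gene lists were chosen with earlier results of these data known. Named genes are the 7 members, Igf1r, 22 pathway genes taken whatever their values (2 had none), the 2 genes of each list with the smallest unadjusted p, and the 3 nearest profiles of each member, passing over predicted genes and pseudogenes. One gene that this rule takes is not reported here. Alternatives were other scalings, a pseudocount of 0.1, other filters, a replicate block, edgeR 4.0.16 and DESeq2 1.42.0 on the recovered reads, each library left out, and, added after seeing the data, scaling to summed adipocyte markers. The labels do not pair the samples, and the main test used no pairing. The replicate block and the same-number comparisons took pairing by number as an assumption. Deviations from the group means correlated at 0.35, 0.35 and 0.83 over genes between same-numbered libraries, the last joining the 2 muscle-rich libraries. AdIGF1RKO 1 with Flox 2 reached 0.70, so the data do not settle the pairing. Exon lengths are from GENCODE M21 on GRCm38, another build than the submitters', and serve for lengths only. Promoter sequences are from RefSeq, GRCm38.p6.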

Additional observations from a re-analysis of the deposited data

How the results depend on the processing

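The 0 genes called by limma became 23 with DESeq2 on the recovered reads and ranged from 0 to 1 with each library left out, the 1 being found without Flox 1; no member was among the calls of any setting. The deposited scaling moved the median gene to -0.17 and gave log2 differences of -0.11 for Npr1, -0.020 for Adrb1 and -0.052 for Adora1, each reversed in sign. With a library left out, Npr1 ranged from -0.16 to 0.17, with -0.16 without AdIGF1RKO 1 and -0.03 without Flox 3, and Adora1 from -0.011 (without Flox 3) to 0.19. For these reversals the cause was not tested beyond the scaling or library named. Npr3 (0.66 to 1.09), Ptger3 (0.32 to 0.51), Adrb3 (-0.41 to -0.03), Hcar1 (-0.62 to -0.15), Adrb1 (0.03 to 0.19) and the Npr1 to Npr3 log2 ratio (-1.23 to -0.67) kept their sign with each library left out. For Npr3 this was fixed in advance, since its groups do not overlap. The replicate block, paired by number, gave 0 genes called, a log2 difference of 0.91 for Npr3 (adjusted p = 0.914) and changed no member's call. Adrb1 has no value with a mean of at least 5, which removes it. With 3 libraries a group and 90 to 189 reads, Adrb1 was the member most limited by depth.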
